A study of Saccharomyces cerevisiae and Saccharomyces cerevisiae x Saccharomyces paradoxus with 20 samples.

Results

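Transcript level and promoter accessibility were examined for 10 genes that encode enzymes of the tricarboxylic acid (TCA) cycle or their close relatives. The genes CIT1, CIT2, ACO1, IDH1, IDH2, KGD1, KGD2, LSC1, FUM1 and MDH1 were taken by systematic name from the gene tables, where all 10 were present among 4995 genes. A nucleosome free region (NFR), a stretch of open chromatin, was assigned to a gene when it overlapped the 300 bp upstream of the start codon. This rule found 8 NFRs among the 3498 in the tables, 1 each for 8 of the genes, and none for FUM1 or MDH1.

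The study compared Saccharomyces cerevisiae with its relative Saccharomyces paradoxus by RNA-seq and by FAIRE-seq, which sequences the DNA that stays free of protein after formaldehyde fixation. The haploid strains were UWOPS05_217_3 and DBVPG1373 (S. cerevisiae, the latter a wine strain) and CBS432 (S. paradoxus according to the study, although the sample labels give S. cerevisiae for it). Each S. cerevisiae strain was also crossed to CBS432, and the diploid F1 hybrids UWOPS05_217_3-CBS432 and DBVPG1373-CBS432 were assayed with their reads assigned to the parental alleles. The labels name no treatment, and the cultures were grown in YEPD, a rich glucose medium, to mid-log phase, with 2 biological replicates per strain and assay and 20 samples in all. S. paradoxus was represented by CBS432 alone, so species and strain cannot be told apart in either assay. For RNA, S. cerevisiae was also represented by 1 strain in the results below. Hybrid state cannot be told apart from diploidy. RNA results below are for the UWOPS05_217_3 cross, and FAIRE results are for both crosses.

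The TCA cycle oxidizes acetyl groups to carbon dioxide in the mitochondrial matrix and passes electrons to the respiratory chain. It also supplies alpha-ketoglutarate and other precursors for amino acid synthesis. In S. cerevisiae many of its genes are repressed by glucose and activated by the Hap complex on respiratory carbon sources, while the retrograde (Rtg) pathway can drive the early steps of the cycle when mitochondria are impaired.

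Total counts were 51389633 to 106845771 in the haploid RNA libraries, 36188856 to 54971715 for each allele of the hybrid RNA libraries, 2561228 to 4198250 in the haploid FAIRE tables and 1339393 to 2036883 for each allele of the hybrid FAIRE libraries. A read that covers several counted positions may be counted more than once. Ploidy labels were checked with haploid-specific genes, of which 6 were listed and 3 tested (FUS3, STE18 and NEJ1). Their summed level was 390.4 to 484.9 CPM (counts scaled to the total of their table) in haploids and 12.2 to 43.7 CPM in the hybrid alleles. All 3 were called higher in haploids for both alleles, against 11.3% (UWOPS05_217_3 allele) and 4.9% (CBS432 allele) of all genes. For the CBS432 allele the log2 difference ran from 0.75 (NEJ1) to 9.06 (FUS3).

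Per kilobase of gene, the members differed widely in RNA level within UWOPS05_217_3 haploids. The aconitase gene ACO1 was at 448 ± 27.6 CPM per kb (SD, n = 2) and the peroxisomal citrate synthase gene CIT2 at 38.1 ± 4.74 CPM per kb. Between them came MDH1 (408 ± 9.19 CPM per kb), IDH2 (398 ± 29.7), IDH1 (302 ± 10.6), LSC1 (300 ± 14.1), KGD2 (258 ± 5.66), FUM1 (236 ± 19.1), KGD1 (234 ± 32.5) and CIT1 (170 ± 12.7). MDH1 and IDH2, IDH1 and LSC1, and FUM1 and KGD1 were neighbours in this order whose levels differed by less than the larger of their SDs. In CBS432 haploids ACO1 (402 ± 9.9 CPM per kb) and IDH2 (399 ± 18.4 CPM per kb) were level within their SD, and CIT2 was again lowest at 29.3 ± 1.7 CPM per kb. These levels depend also on how many positions of a gene could be counted.

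**Figure D1:**
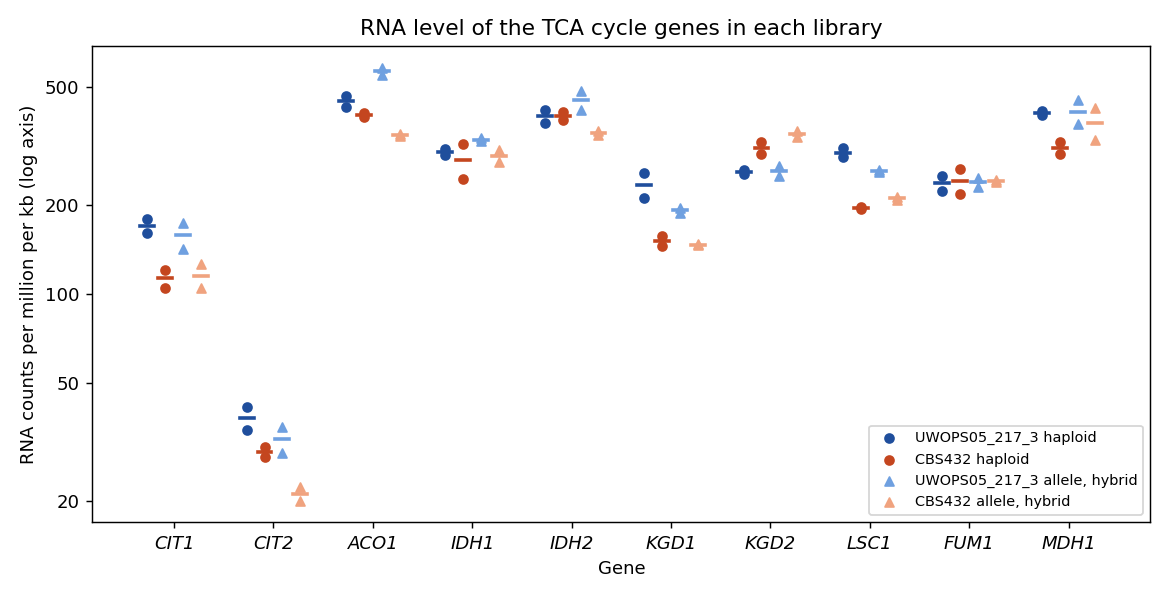
RNA level of the 10 genes in CPM per kb (log axis) for haploids and for the alleles of the UWOPS05_217_3-CBS432 hybrid, with 1 point per library. ACO1 lay at the top and CIT2 at the bottom of the UWOPS05_217_3 haploid levels, with means of 448 and 38.1 CPM per kb.

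The comparison of haploids asks which genes differ in transcript level between the strains. RNA of CIT1, CIT2, KGD1, LSC1 and MDH1 was higher in UWOPS05_217_3 and RNA of KGD2 was lower, while ACO1, IDH1, IDH2 and FUM1 did not pass the test. Thus 6 of the 10 genes were called at an adjusted p under 0.05, against 54.6% of all genes tested, with 5 higher (28.2% of all genes) and 1 lower (26.4%). The median log2 difference (UWOPS05_217_3 over CBS432) was 0.255 over the members and 0.01 over all genes. The samples were bulk cultures, so fewer cells that express a gene and less RNA per cell cannot be told apart. How many of all genes or NFRs had groups without overlap was not counted, for haploids or for the later comparisons.

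At the entry to the cycle, CIT1 (YNR001C, minus strand of chromosome XIV, 629623 to 631062 in the coordinates of the tables) encodes the mitochondrial citrate synthase. Its level was 257 and 232 CPM in UWOPS05_217_3 haploids (replicates 1 and 2) and 175 and 151 CPM in CBS432 haploids. The groups did not overlap, and the log2 difference was 0.57 ± 0.10 (SE), a 1.48-fold higher level in UWOPS05_217_3 (edgeR adjusted p = 0.0015). CIT2 (YCR005C, minus strand of chromosome III, 120946 to 122328), whose product acts in the peroxisome and in the glyoxylate cycle, is a classic target of the Rtg pathway. It was at 48.2 and 57.5 CPM in UWOPS05_217_3 and at 42.1 and 38.8 CPM in CBS432. The log2 difference was 0.37 ± 0.13 (edgeR adjusted p = 0.0398). This call was lost without UWOPS05_217_3 replicate 2 (0.22, adjusted p = 0.236) and without either CBS432 library (replicate 1 removed: 0.41, adjusted p = 0.0681, replicate 2 removed: 0.32, adjusted p = 0.127). CIT1 and CIT2 are related genes, and whether reads of one were assigned to the other was not tested.

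In the oxidative arm, ACO1 (YLR304C, minus strand of chromosome XII, 735212 to 737548), which converts citrate to isocitrate, was at 1093 and 1000 CPM in UWOPS05_217_3 and at 956 and 923 CPM in CBS432. The groups did not overlap but the difference was small, at 0.14 ± 0.10 on the log2 scale (edgeR adjusted p = 0.278). IDH1 (YNL037C, minus strand of chromosome XIV, 557921 to 559003) and IDH2 (YOR136W, plus strand of chromosome XV, 580250 to 581359) encode the subunits of the NAD-dependent isocitrate dehydrogenase. IDH1 was at 335 and 318 CPM in UWOPS05_217_3 and at 266 and 349 CPM in CBS432, and IDH2 was at 465 and 418 CPM against 428 and 457 CPM. The groups overlapped for IDH1 and for IDH2, with log2 differences of 0.07 ± 0.13 (adjusted p = 0.689) and -0.02 ± 0.10 (adjusted p = 0.868).

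The subunits of the alpha-ketoglutarate dehydrogenase complex differed in opposite directions. KGD1 (YIL125W, plus strand of chromosome IX, 122689 to 125733), the dehydrogenase subunit, was at 641 and 783 CPM in UWOPS05_217_3 and at 440 and 477 CPM in CBS432, a log2 difference of 0.62 ± 0.13 and 1.54-fold (edgeR adjusted p = 0.00393). KGD2 (YDR148C, minus strand of chromosome IV, 753675 to 755066), the dihydrolipoyl transsuccinylase subunit, was at 353 and 365 CPM in UWOPS05_217_3 and at 453 and 414 CPM in CBS432. Every UWOPS05_217_3 library thus lay above every CBS432 library for KGD1 and below it for KGD2. The log2 difference for KGD2 was -0.29 ± 0.09 (edgeR adjusted p = 0.0292), or 1.22-fold higher in CBS432. Its call was lost without UWOPS05_217_3 replicate 1 (-0.25, adjusted p = 0.0651), CBS432 replicate 1 (-0.24, adjusted p = 0.193) or CBS432 replicate 2 (-0.34, adjusted p = 0.0699).

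Of the later steps, LSC1 (YOR142W, plus strand of chromosome XV, 593057 to 594046), the alpha subunit of succinyl-CoA ligase, was at 307 and 287 CPM in UWOPS05_217_3 and at 192 and 194 CPM in CBS432. This was a log2 difference of 0.61 ± 0.08, or 1.52-fold (edgeR adjusted p = 0.00052), with replicates close together in both strains. The fumarase gene FUM1 (YPL262W, plus strand of chromosome XVI, 47336 to 48802) was at 327 and 366 CPM against 319 and 387 CPM, so that the CBS432 libraries enclosed those of UWOPS05_217_3, with a log2 difference of -0.04 ± 0.12 (adjusted p = 0.789). MDH1 (YKL085W, plus strand of chromosome XI, 279123 to 280127), the mitochondrial malate dehydrogenase gene, was at 417 and 404 CPM in UWOPS05_217_3 and at 297 and 328 CPM in CBS432. The groups did not overlap and the log2 difference was 0.38 ± 0.09 (edgeR adjusted p = 0.0107), but the call was lost without CBS432 replicate 1 (0.29, adjusted p = 0.133). Leaving out that library reduced the members called from 6 to 3.

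Genes that are known to rise when glucose runs out were read beside the members. Of 12 such genes listed, 10 were tested, and 6 were higher and 4 lower in UWOPS05_217_3 (28.2% and 26.4% of all genes), with a median log2 difference of 0.653 against 0.01 over all genes. Their summed level was 236.3 and 217.4 CPM in UWOPS05_217_3 haploids and 135.5 and 188.5 CPM in CBS432 haploids, and none of the 10 was at 0 in a library. Among the 6, ACS1, an acetyl-CoA synthetase gene, was higher in UWOPS05_217_3 by 4.12 ± 0.23 on the log2 scale (edgeR adjusted p = 1.18e-05), and HSP12, a stress protein gene, by 2.15 ± 0.28 (adjusted p = 0.00042). Among the 4, PCK1 was at -2.08 ± 0.43 (adjusted p = 0.00436) and MLS1 at -1.81 ± 0.56 (adjusted p = 0.0249), so the list did not move in 1 direction. Their part in the differences of the TCA genes was not tested.

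The comparison of alleles within the UWOPS05_217_3-CBS432 hybrid, where both alleles share a nucleus, asks for cis effects. The UWOPS05_217_3 allele gave more RNA for 8 of the 10 genes, the CBS432 allele gave more for KGD2, and FUM1 did not pass the test. These 9 calls stand against 68.6% of all genes tested, with 8 higher (31.8% of all genes) and 1 lower (36.7%). The median log2 allele difference was 0.323 over the members and -0.028 over all genes. The model compared the alleles within each library. With the library left out of the model, 7 of the 10 genes were called, and IDH1 (adjusted p = 0.0673) and MDH1 (adjusted p = 0.472) were not.

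The fitted allele difference was largest for ACO1, although in hybrid replicate 1 alone that of CIT2 was larger (0.81 against 0.67 on the log2 scale). Its UWOPS05_217_3 allele was counted 69949 and 49145 times in hybrid replicates 1 and 2 (1282 and 1358 CPM), and its CBS432 allele 43872 and 29646 times (798 and 812 CPM). The UWOPS05_217_3 allele was the higher in both libraries, by 0.70 ± 0.03 on the log2 scale or 1.63-fold (edgeR adjusted p = 9.01e-58). With the library left out of the model, the edgeR adjusted p for ACO1 was 0.000109. CIT2 was at 49.1 and 40.4 CPM against 27.8 and 30.9 CPM, a log2 difference of 0.60 ± 0.13 and 1.51-fold (adjusted p = 9.89e-06). Its size depended on the library, at 0.37 without hybrid replicate 1 and 0.81 without hybrid replicate 2, and at 0.37 it was below the differences of CIT1, IDH2 and KGD1 in the same library.

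KGD1 and KGD2 kept opposite directions as alleles. KGD1 was at 573 and 595 CPM from the UWOPS05_217_3 allele and at 446 and 447 CPM from the CBS432 allele (log2 difference 0.38 ± 0.04, edgeR adjusted p = 9.13e-19). KGD2 was counted 19098 and 13665 times from the UWOPS05_217_3 allele (350 and 378 CPM) and 25880 and 18035 times from the CBS432 allele (471 and 494 CPM). The CBS432 allele of KGD2 was the higher in both libraries, with a log2 difference of -0.42 ± 0.04, or 1.34-fold (edgeR adjusted p = 4.71e-19).

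CIT1 (204 and 250 CPM against 151 and 182 CPM) differed by 0.44 ± 0.06 (edgeR adjusted p = 5.99e-12), and IDH2 (463 and 536 CPM against 382 and 395 CPM) by 0.35 ± 0.04 (adjusted p = 1.69e-14). LSC1, at 260 and 256 CPM against 206 and 210 CPM, differed by 0.30 ± 0.05 (adjusted p = 2.38e-07). The 3 genes had no overlap between alleles, and neither had ACO1, CIT2, KGD1 and KGD2 above or IDH1 (355 and 364 CPM against 304 and 331 CPM). The share of all genes without overlap was not counted, and with 2 values per group separation alone is weak evidence. The smallest differences called were those of IDH1 at 0.17 ± 0.05 (adjusted p = 0.000422) and MDH1 at 0.12 ± 0.04 (adjusted p = 0.00739). MDH1 was at 376 and 453 CPM from the UWOPS05_217_3 allele and at 332 and 426 CPM from the CBS432 allele, so the alleles overlapped across libraries while the UWOPS05_217_3 allele was higher within each, by 0.17 without hybrid replicate 2 and by 0.073 without hybrid replicate 1. FUM1 was at 337 and 361 CPM against 349 and 357 CPM (log2 difference -0.03 ± 0.04, adjusted p = 0.584).

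**Figure D2:**
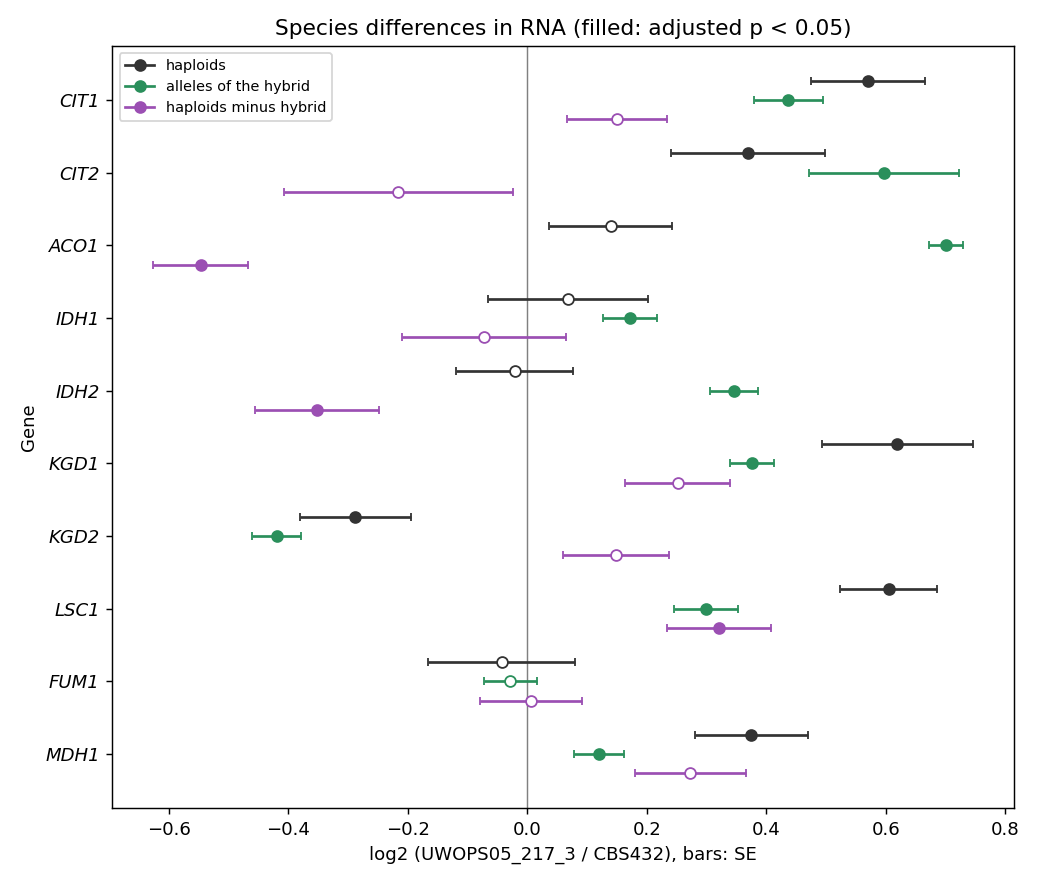
Log2 difference in RNA between UWOPS05_217_3 and CBS432 for haploids, for hybrid alleles and for their difference (haploids minus hybrid), with SE bars and filled points where the edgeR adjusted p was under 0.05. ACO1 stood near 0.14 in haploids and at 0.70 in the hybrid, and KGD2 was negative in both (-0.29 and -0.42).

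Whether the species ratio in haploids differed from the allele ratio in the hybrid, which the study takes as a trans effect, was tested as an interaction. The test used the same libraries as both comparisons above. It called ACO1 and IDH2, with a lower ratio in haploids, and LSC1, with a higher one, or 3 of 10 genes against 25.8% of all genes (1 higher against 15.2%, and 2 lower against 10.6%). The median was 0.077 over the members and 0.07 over all genes.

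For ACO1 the difference of log2 ratios (haploids minus hybrid) was -0.55 ± 0.08 (edgeR adjusted p = 0.00175), which was not called without hybrid replicate 2 (-0.52, adjusted p = 0.0657). For IDH2 it was -0.35 ± 0.10 (adjusted p = 0.0354), and the call was lost without hybrid replicate 1 (-0.43, adjusted p = 0.0901) or hybrid replicate 2 (-0.27, adjusted p = 0.294). It was -0.23 without UWOPS05_217_3 replicate 2 or CBS432 replicate 2, fits that rested on the same haploid pair. IDH2 thus had a ratio near 0 in haploids and a UWOPS05_217_3 allele that was higher in the hybrid. LSC1 had the larger ratio in haploids, by 0.32 ± 0.09 (adjusted p = 0.0254), and its call was lost without hybrid replicate 1 (0.35, adjusted p = 0.113) or hybrid replicate 2 (0.29, adjusted p = 0.201). Without the blocks for replicate and library, IDH2 (adjusted p = 0.0977) and LSC1 (adjusted p = 0.0598) were not called, and LSC1 was not called under TMM scaling (0.25, adjusted p = 0.0584). MDH1 (0.27, adjusted p = 0.0583) and KGD1 (0.25, adjusted p = 0.0632) lay on the LSC1 side without passing the edgeR test, while DESeq2 called both (adjusted p = 0.0449 and 0.0479). FUM1 was at 0.01 (edgeR adjusted p = 0.965).

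The interaction values also depended on the haploid libraries, which were blocked by replicate number although the labels do not pair them. With that block, leaving out 1 haploid library also took its same-numbered partner out of the ratio. Leaving out either library of a pair therefore gave the same value, which rested on the other pair. Such fits hold no spread between haploid cultures, so only their values are given. KGD1 was at 0.34 without a haploid library of replicate 1 and at 0.17 without one of replicate 2. In the same order, MDH1 was at 0.18 and 0.37, KGD2 at 0.24 and 0.06, and IDH1 at -0.31 and 0.16.

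The same allele was then compared between haploid and hybrid cells. For the UWOPS05_217_3 allele, ACO1 was the only member called in the fit without a replicate block, against 22.8% of all genes (11.5% lower in haploids, as ACO1 was, and 11.3% higher). With the replicate block 3 members were called, each lower in haploids. It was at 1093 and 1000 CPM in haploids and at 1282 and 1358 CPM in the hybrid, without overlap, a log2 difference (haploid minus hybrid) of -0.42 ± 0.10 (edgeR adjusted p = 0.018). The call was lost without UWOPS05_217_3 replicate 2 (-0.37, adjusted p = 0.0591), hybrid replicate 1 (-0.47, adjusted p = 0.0818) or hybrid replicate 2 (-0.36, adjusted p = 0.161).

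For the CBS432 allele, edgeR called 0 of 10 members, against 7.17% of all genes (4.9% higher in haploids and 2.26% lower). Before adjustment 3 members had a p under 0.05, and DESeq2 called 2 members. The CBS432 allele of ACO1 was at 956 and 923 CPM in haploids and at 798 and 812 CPM in the hybrid, a log2 difference of 0.21 (edgeR adjusted p = 0.166). The alleles of ACO1 therefore had differences of opposite sign, and that of CBS432 did not pass the test. CIT2 was at 42.1 and 38.8 CPM in CBS432 haploids and at 27.8 and 30.9 CPM in the hybrid, which did not overlap (log2 difference 0.45 ± 0.13, adjusted p = 0.0851). With DESeq2 the adjusted p was 0.0159 for CIT2 and 0.0286 for ACO1. MDH1 (-0.30, edgeR adjusted p = 0.212) was called only without hybrid replicate 1 (-0.48, adjusted p = 0.0124).

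The remaining enzymes of the cycle were read beside the members. Of 10 other TCA genes, including the succinate dehydrogenase subunits, 5 were higher and 1 lower in UWOPS05_217_3 haploids, against 54.6% of all genes called, with a median log2 difference of 0.289 (0.01 over all genes). CIT3, a minor mitochondrial citrate synthase gene, was higher by 1.57 ± 0.21 (edgeR adjusted p = 0.000534), and SDH2, the iron-sulfur subunit of succinate dehydrogenase, by 0.78 ± 0.12 (adjusted p = 0.00085). In the hybrid all 10 were called, 5 in each direction, against 68.6% of all genes, with a median of -0.05 (-0.028 over all genes). SDH3, a membrane anchor subunit of succinate dehydrogenase, had the higher CBS432 allele (-0.90 ± 0.06, adjusted p = 3.37e-34). The interaction test called 5 of these genes, against 25.8% of all genes, and the 5 had a higher ratio in haploids (15.2% of all genes), among them KGD4 (0.64 ± 0.11, adjusted p = 0.00411), a small subunit of the alpha-ketoglutarate dehydrogenase complex.

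A mixed list of 9 genes held ICL1 and MLS1 (glyoxylate cycle), MDH2, MDH3, IDP2 and IDP3 (cytosolic or peroxisomal counterparts), the carrier gene SFC1, and PCK1 and FBP1 (gluconeogenesis). In UWOPS05_217_3 haploids 2 were higher and 4 lower (median -0.442), where 54.6% of all genes were called. As alleles 2 were higher and 5 lower (median -0.788), where 68.6% of all genes were called. Both medians are the values of SFC1, which was not called. PCK1 and FBP1 were among the lower genes in both comparisons. ICL1, MLS1, PCK1 and FBP1 were also among the genes above that rise when glucose runs out, so the counts of the lists are not separate. PCK1, the gluconeogenic phosphoenolpyruvate carboxykinase gene, was lower in UWOPS05_217_3 haploids by -2.08 ± 0.43 on the log2 scale (edgeR adjusted p = 0.00436). IDP2, the cytosolic NADP-dependent isocitrate dehydrogenase gene, was lower as an allele (-2.18 ± 0.20, adjusted p = 4.13e-20), and MDH3, the peroxisomal malate dehydrogenase gene, was higher (1.73 ± 0.07, adjusted p = 9.27e-62).

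Of 6 genes for the entry of pyruvate, 4 were tested, with 2 higher and 1 lower in UWOPS05_217_3 haploids, where 54.6% of all genes were called. The pyruvate dehydrogenase genes LAT1 (0.56 ± 0.11, edgeR adjusted p = 0.00339) and PDB1 (0.49 ± 0.09, adjusted p = 0.00288) were the higher ones. Of 11 regulators of these pathways, 10 were tested, and 4 were higher and 2 lower in UWOPS05_217_3 haploids, beside the same share. As alleles 4 regulators were higher and 4 lower, where 68.6% of all genes were called. ADR1, an activator of glucose-repressed genes, was higher in UWOPS05_217_3 haploids by 1.37 ± 0.13 (adjusted p = 9.56e-05). In the hybrid its CBS432 allele was the higher (-0.46 ± 0.16, adjusted p = 0.00633). The interaction test called 3 regulators with a higher ratio in haploids and 1 with a lower one, against 25.8% of all genes. ADR1 was among the 3 (1.85 ± 0.23, edgeR adjusted p = 0.000711). RTG2, a sensor of the retrograde pathway, was higher in haploids by 0.95 ± 0.09 (adjusted p = 0.000112) and as an allele by 0.86 ± 0.06 (adjusted p = 8.68e-29). HAP4, the activating subunit of the Hap complex and named here after its values were seen, was lower in UWOPS05_217_3 haploids (-0.56 ± 0.09, adjusted p = 0.00111). The other Hap genes listed did not share 1 direction. HAP2 was lower (-0.34 ± 0.11, adjusted p = 0.0323), HAP5 was higher (0.38 ± 0.10, adjusted p = 0.0158) and HAP3 was not called (0.31 ± 0.15, adjusted p = 0.12).

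The NFRs upstream of the members lay, in the coordinates of the tables (sacCer3 according to the submitters' notes), between 67 bp (IDH2) and 499 bp (ACO1) in width. The NFR of KGD2 spanned positions 755190 to 755461 of chromosome IV (272 bp), upstream of the gene's start. That of ACO1 spanned 737544 to 738042 of chromosome XII, and so ran from the gene's start into the upstream region. The NFR of KGD2 also lay within 300 bp upstream of NUM1, and that of LSC1 (chromosome XV, 592748 to 592840) within 300 bp upstream of ARP8, so accessibility there cannot be assigned to 1 gene.

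The comparison of haploids at the NFRs asks where chromatin accessibility differs between each S. cerevisiae strain and CBS432. Between UWOPS05_217_3 and CBS432, KGD2 was the only 1 of 8 member NFRs called, against 20.4% of all NFRs (9.58% lower in UWOPS05_217_3 and 10.8% higher). Between DBVPG1373 and CBS432, edgeR called 0 of 8, against 8.23% of all NFRs (4.26% higher and 3.97% lower). The NFR of KGD2 was the only 1 with a p under 0.05 before adjustment and the only 1 that DESeq2 called. Both comparisons use the same CBS432 libraries, counted at the sites of each cross, so they are not independent.

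The NFR of KGD2 was at 197 and 166 CPM in UWOPS05_217_3 haploids (555 and 698 counts) and at 391 and 289 CPM in CBS432 haploids (1044 and 747 counts). The CBS432 libraries were the higher, with a log2 difference of -0.88 ± 0.30, or 1.84-fold (edgeR adjusted p = 0.038). The call was lost when any 1 library was left out, and the difference was then -0.93 (adjusted p = 0.0943) or -0.82 (adjusted p = 0.159) after removal of UWOPS05_217_3 replicate 1 or 2, and -0.72 (adjusted p = 0.205) or -1.01 (adjusted p = 0.0777) after removal of CBS432 replicate 1 or 2. In DBVPG1373 haploids the same NFR was at 114 and 158 CPM, against 389 and 288 CPM for the CBS432 libraries at the sites of that cross. These groups did not overlap either, and the log2 difference was -1.22 ± 0.37, or 2.32-fold (edgeR adjusted p = 0.0537). It was called by DESeq2 (-1.19, adjusted p = 0.038), with a replicate block (-1.25, adjusted p = 0.00436) and without DBVPG1373 replicate 2 (-1.62, adjusted p = 0.00218).

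The NFR of ACO1 was at 135 and 178 CPM in UWOPS05_217_3 haploids and at 98.9 and 89.3 CPM in CBS432 haploids, without overlap (log2 difference 0.77, edgeR adjusted p = 0.157). In DBVPG1373 haploids it was at 126 and 219 CPM against 109 and 109 CPM (0.76, adjusted p = 0.287), and it was called only without DBVPG1373 replicate 1 (1.20, adjusted p = 0.0346). Of the others in the UWOPS05_217_3 comparison, LSC1 (0.85, adjusted p = 0.207), CIT1 (0.62, adjusted p = 0.227), CIT2 (0.24, adjusted p = 0.656) and KGD1 (0.23, adjusted p = 0.817) had positive differences. IDH1 (-0.51, adjusted p = 0.345) and IDH2 (-0.64, adjusted p = 0.522) had negative ones. None of these passed the test, and the NFR of IDH2 held only 14 to 58 counts per library or allele, so a difference there was hardly detectable at this depth. The median over the 8 NFRs was 0.234 for UWOPS05_217_3 and -0.238 for DBVPG1373, against -0.001 and 0 over all NFRs.

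Between the alleles of the UWOPS05_217_3-CBS432 hybrid, edgeR called 0 of 8 NFRs, against 24.8% of all NFRs (15.1% higher from UWOPS05_217_3 and 9.69% lower). Before adjustment 3 had a p under 0.05, and DESeq2 called 0 of them. The NFR of KGD2 was at 186 and 215 CPM from the UWOPS05_217_3 allele and at 334 and 374 CPM from the CBS432 allele. The CBS432 allele was higher in both libraries (log2 difference -0.73 ± 0.31, adjusted p = 0.0647), and the NFR was called with TMM scaling (-0.82, adjusted p = 0.0373). That of KGD1 was counted 84 and 72 times from the UWOPS05_217_3 allele and 31 and 29 times from the CBS432 allele (1.37 ± 0.59, adjusted p = 0.0711). Between haploids the NFR of KGD1 differed by 0.23 ± 0.52 for UWOPS05_217_3 and by -0.39 ± 0.66 for DBVPG1373, and neither was called. That of LSC1 was counted 131 and 102 times against 60 and 51 times (1.06 ± 0.52, adjusted p = 0.116). The alleles did not overlap for these NFRs, but the counts were low, and the share of all NFRs without overlap was not counted. The NFR of ACO1 was at 175 and 179 CPM against 163 and 203 CPM, with overlapping alleles (0.06, adjusted p = 0.939), a difference that turned to -0.03 with TMM scaling.

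In the DBVPG1373-CBS432 hybrid, the NFRs of ACO1 and KGD2 were called, 2 of 8 against 29.8% of all NFRs (17.5% higher from DBVPG1373 and 12.3% lower). The NFR of ACO1 was at 253 and 230 CPM from the DBVPG1373 allele (516 and 467 counts) and at 146 and 125 CPM from the CBS432 allele (277 and 237 counts). The DBVPG1373 allele was higher in both libraries, by 0.94 ± 0.26 on the log2 scale or 1.92-fold (edgeR adjusted p = 0.0203). That of KGD2 was at 154 and 176 CPM from the DBVPG1373 allele (314 and 358 counts) and at 275 and 340 CPM from the CBS432 allele (521 and 645 counts). Here the CBS432 allele was the higher in both libraries, with a log2 difference of -0.79 ± 0.24, or 1.73-fold (edgeR adjusted p = 0.0328), which missed the threshold without the library block (adjusted p = 0.0516). The difference was not called for IDH1 (-0.56, adjusted p = 0.112), IDH2 (-1.32, adjusted p = 0.121), KGD1 (0.48, adjusted p = 0.503) or LSC1 (0.27, adjusted p = 0.701), and CIT1 was at 0.00 (adjusted p = 1).

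Across the 16 library and allele columns, every CBS432 value of the NFR of KGD2 (275 to 391 CPM) was above every S. cerevisiae value (114 to 215 CPM). These columns are not independent. The CBS432 haploid libraries enter at the sites of each cross, and both alleles of a hybrid come from the same libraries. How many of all NFRs separate in this way was not counted. The RNA of KGD2 was likewise higher from CBS432 in haploids and as an allele. The other gene at this NFR, NUM1, was not among the genes counted for RNA, so its RNA could not be tested. ARP8, which shares the NFR of LSC1, had an RNA difference of -0.06 ± 0.10 between haploids (edgeR adjusted p = 0.628) and of -0.18 ± 0.06 between alleles (adjusted p = 0.00242), opposite in sign to LSC1.

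**Figure D3:**
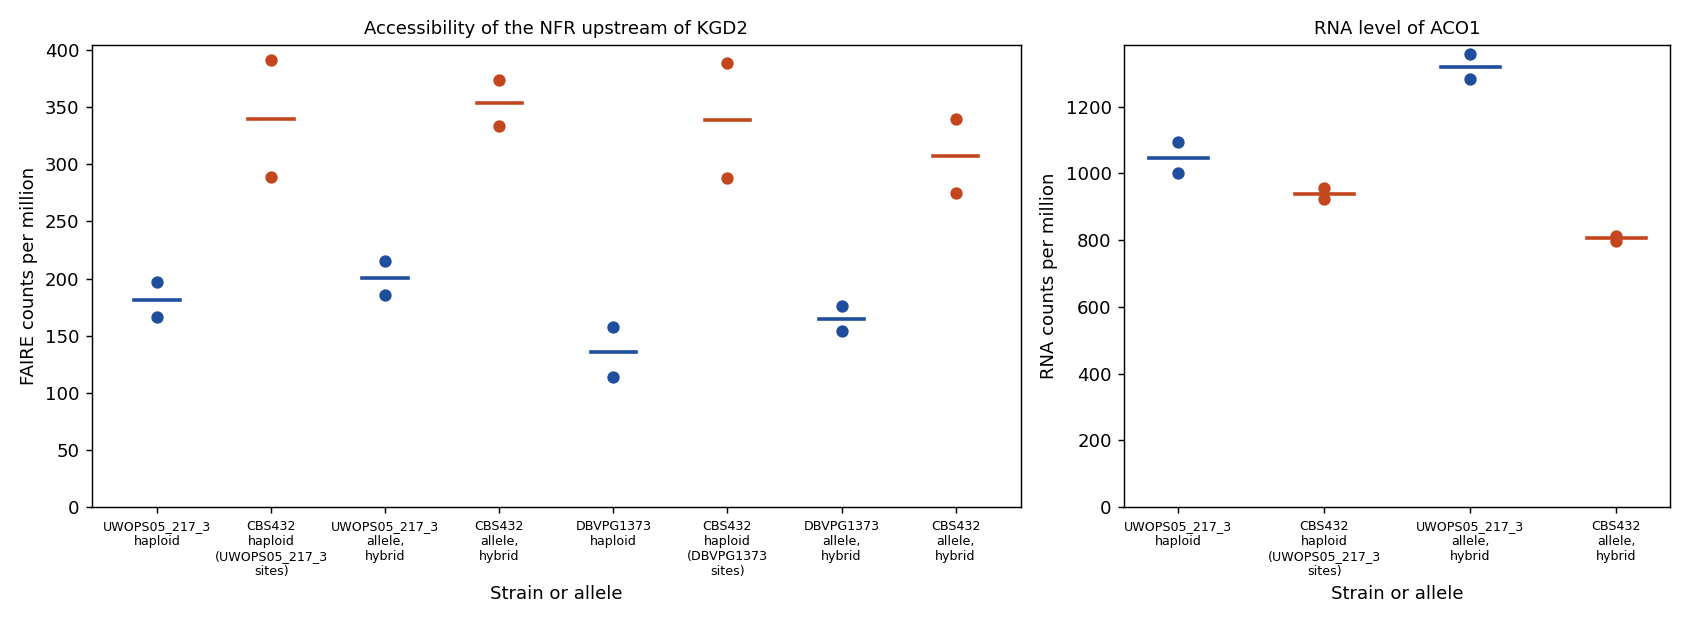
FAIRE CPM at the NFR upstream of KGD2 in haploids and hybrid alleles of both crosses, and RNA CPM of ACO1 in the UWOPS05_217_3 cross. There is 1 point per library or allele, with bars at the mean, and the CBS432 haploid FAIRE libraries are drawn again at the sites of each cross. The CBS432 points of KGD2 (275 to 391 CPM) lie above all S. cerevisiae points (114 to 215 CPM), and the ACO1 alleles of the hybrid (1282 and 1358 against 798 and 812 CPM) lie farther apart than the haploids.

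No member NFR passed the test for a species ratio that differs between haploids and hybrid. The edgeR interaction test called 0 of 8 in the UWOPS05_217_3 cross and 0 of 8 in the DBVPG1373 cross, against 0.0572% and 0% of all NFRs. None of the 8 had an unadjusted p under 0.05 in either cross, and DESeq2 called 0 in each. A missed threshold does not show that the ratios were equal.

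**Figure D4:**
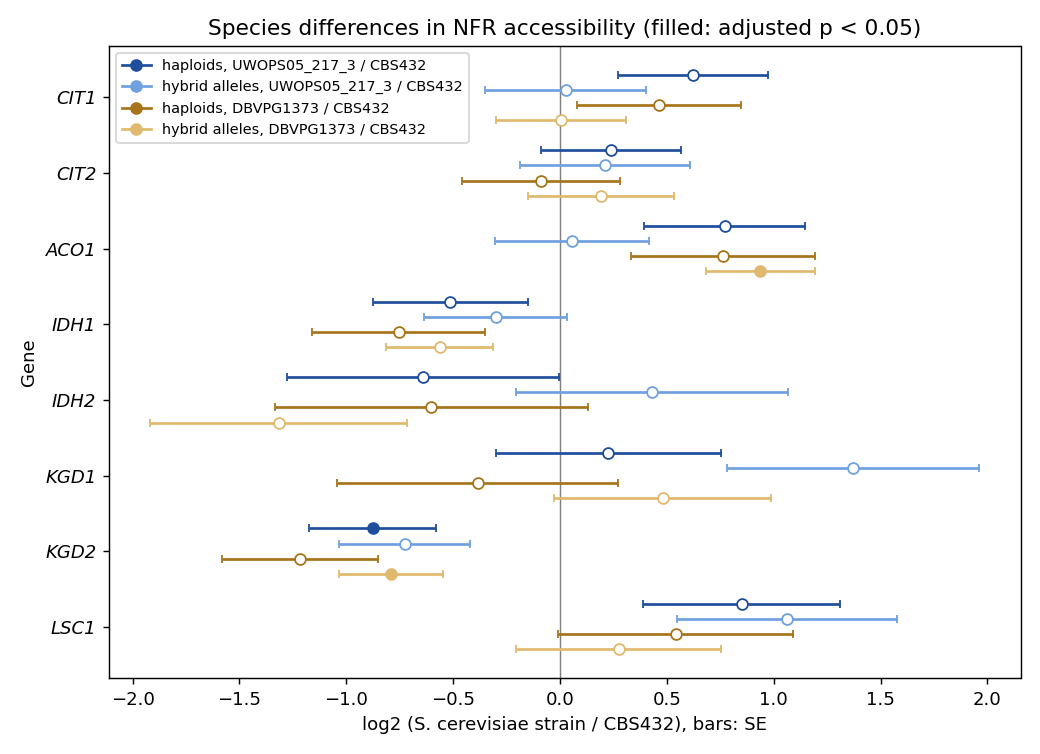
Log2 difference in accessibility between S. cerevisiae and CBS432 at the 8 NFRs, for haploids and hybrid alleles of both crosses, with SE bars and filled points where the edgeR adjusted p was under 0.05. KGD2 was negative in the 4 comparisons plotted (-0.88, -1.22, -0.73 and -0.79), while ACO1 ran from 0.06 (-0.03 with TMM scaling) to 0.94.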

How the data were processed

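The authors mapped reads with BWA to strain genomes (hybrids to a combined genome), summed reads over NFRs and genes at positions without indels, and deposited counts per NFR or gene, by allele in hybrids. Genome build and tools are from the submitters' notes (sacCer3, CASAVA, BWA, without versions). RNA strand handling is not given in the sources used here, so sense and antisense reads cannot be told apart. Replicates were 2 cultures. The p-values reflect only counting noise and spread between cultures, and edgeR shares its estimate of that spread across all genes or NFRs. For alleles it is the spread of the allele ratio between libraries.

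The 24 count tables used were tested with edgeR 4.0.16 in R 4.3.3 by quasi-likelihood tests over all 4995 genes or 3498 NFRs, with Benjamini-Hochberg adjustment at 0.05 and no filter on low counts. Haploids, and haploids against hybrid alleles, were fitted with TMM scaling. Alleles were compared within hybrid libraries (library as block), each scaled by the library total of both alleles. Interaction fits had haploid replicate number and hybrid library as blocks, although the labels do not pair the haploids. The study's own tests, DESeq and INLA, were replaced by these. CPM are counts scaled to a table's total. Differences are given on the log2 scale with SE.

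Alternatives were DESeq2 1.42.0, another scaling, the replicate or library block added or removed, low counts left out (RNA mean count under 100), a threshold of 0.01, NFRs assigned by centre or within 500 bp, and each library left out in turn. Another 8 tables, RNA of the DBVPG1373 cross, were not used because some genes hold the same value in every library. Named genes were the 10 members, their NFRs, and from each list mostly the called genes with the largest differences. The Hap genes and, among the glucose-repressed genes, PCK1 and MLS1 were added after their values were seen. Members and lists were chosen with earlier results of these data known. Promoter sequences and motifs were not analysed here.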

Additional observations from a re-analysis of the deposited data

Results flagged for a closer look

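The species ratio in RNA differed between haploids and the UWOPS05_217_3-CBS432 hybrid by the edgeR interaction test for 3 of the 10 genes. The log2 ratio of haploids minus that of the hybrid was -0.55 for ACO1 and -0.35 for IDH2, and 0.32 for LSC1. The ACO1 ratio was therefore larger in the hybrid, and the LSC1 ratio larger in haploids. For each gene the call was lost in at least 1 fit without a hybrid library.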

How the results depend on the processing

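Leaving out 1 library at a time gave 3 to 5 members called for RNA between haploids, 0 to 6 for the RNA interaction, 0 to 2 for the UWOPS05_217_3 allele and 0 to 1 for the CBS432 allele between haploid and hybrid. For FAIRE it gave 0 between UWOPS05_217_3 and CBS432 haploids and 0 to 1 between DBVPG1373 and CBS432 haploids. For the RNA interaction, the fits without a haploid library rested on 1 haploid pair, so their calls hold no spread between haploid cultures. For the allele comparisons, leaving out a hybrid library gave values with no test. At a threshold of 0.01, 3 members were called for RNA between haploids, 1 for the RNA interaction, and 0 for the UWOPS05_217_3 allele between haploid and hybrid, for FAIRE between UWOPS05_217_3 and CBS432 haploids and for FAIRE alleles of the DBVPG1373-CBS432 hybrid. DESeq2 called 5 members for the RNA interaction, 2 for the CBS432 allele and 1 for FAIRE between DBVPG1373 and CBS432 haploids, and TMM scaling called 1 for FAIRE alleles of the UWOPS05_217_3-CBS432 hybrid. Over all features, DESeq2 called 593 genes in place of 358 for the CBS432 allele and 474 NFRs in place of 288 between DBVPG1373 and CBS432 haploids.

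Replicate numbers correlated at 0.267 (RNA), 0.17 (FAIRE, UWOPS05_217_3 cross) and 0.27 (FAIRE, DBVPG1373 cross) in their deviations from group means, but with 2 numbers and no batch in the labels the pairing is not established. The interaction fits nevertheless had haploid replicate number as a block, by design, and the comparisons of haploids and of haploid with hybrid had none. With the replicate block, 6 members were again called for RNA between haploids, 3 for the UWOPS05_217_3 allele and 1 for FAIRE between DBVPG1373 and CBS432 haploids. Over all features the block gave 1863 in place of 1138 genes for the UWOPS05_217_3 allele and 736 in place of 288 NFRs for DBVPG1373. With no replicate block or library block, 1 member was called for the RNA interaction and 1 for FAIRE alleles of the DBVPG1373-CBS432 hybrid. Over all features that gave 617 in place of 1288 genes for the RNA interaction and 456 in place of 866 NFRs for alleles of the UWOPS05_217_3-CBS432 hybrid.

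The differences below changed sign in some fit. None was called in the fits of the report. IDH1 was called in the RNA interaction only in fits that rested on 1 haploid pair. With TMM scaling, FUM1 was at -0.069 in the RNA interaction, and in FAIRE alleles ACO1 (-0.0325) and CIT1 (-0.062) of the UWOPS05_217_3-CBS432 hybrid and CIT1 (-0.091) of the DBVPG1373-CBS432 hybrid turned negative. TMM moved the median of all genes in the RNA interaction from 0.07 to -0.004. In FAIRE alleles it moved the median of all NFRs from 0.085 to 0 in the UWOPS05_217_3-CBS432 hybrid and from 0.092 to 0 in the DBVPG1373-CBS432 hybrid. With 1 library left out, the RNA difference between haploids ran from -0.088 to 0.0396 for IDH2, from -0.195 to 0.12 for FUM1 and from -0.13 to 0.29 for IDH1, and that between alleles from -0.061 to 0.0053 for FUM1. The RNA interaction ran from -0.43 to 0.007 for CIT2, from -0.051 to 0.064 for FUM1 and from -0.31 to 0.16 for IDH1. FAIRE between DBVPG1373 and CBS432 haploids ran from -0.29 to 0.081 for CIT2. In FAIRE alleles of the UWOPS05_217_3-CBS432 hybrid, CIT2 ran from -0.11 to 0.55, ACO1 from -0.087 to 0.20 and CIT1 from -0.21 to 0.26. In those of the DBVPG1373-CBS432 hybrid, CIT2 ran from -0.32 to 0.71, CIT1 from -0.32 to 0.32 and LSC1 from -0.33 to 0.93. The cause of these changes was not tested. NFRs assigned by centre or within 500 bp were the same 8. With 2 replicates per group, low NFR counts limit what could be called.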
